A study of Mus musculus with 60 samples.

Results

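Cyp1a1 and Cyp1b1, a pair of cytochrome P450 genes, were measured in Balb/c 3T3 cells, a line of mouse embryo fibroblasts from the BALB/c strain, after treatment with 4 chemical carcinogens. The members were all probe sets (groups of short oligonucleotides that together read 1 transcript) that the platform's gene table gives to either gene alone. These were 2 of 18194 named genes and 4 of the 45101 probe sets on the array, with 1422217_a_at for Cyp1a1 and 3 for Cyp1b1, and the leading probe set of a gene is the one with the highest mean over the 60 arrays. The chemicals were 2-acetylaminofluorene (AAF, an aromatic amide, spelled 2-Acetylaminoflourene in the labels), benzo(a)pyrene (BaP, a polycyclic aromatic hydrocarbon), 2,4-diaminotoluene (DAT, an aromatic amine, in the labels 2, 4-diaminotoluene) and 3-methylcholanthrene (MCA, another polycyclic aromatic hydrocarbon, in the labels 3-methycholanthrene). In approach 1, at concentrations taken from the literature, treatment lasted 24 h or 120 h with AAF at 25 µM, BaP at 0.5 µM, DAT at 50 µM or MCA at 2 µM. In approach 2, at concentrations called IC20 in the labels, AAF at 10 µM, BaP at 1.5 µM, DAT at 700 µM or MCA at 20 µM was given over 24 h. Over 120 h the same approach used AAF at 10 µM, BaP at 0.1 µM, DAT at 0.2 µM or MCA at 0.1 µM. The controls at each time of each approach were cells kept in 0.75% DMSO without a chemical, which made 20 groups of 3 arrays. The labels speak of triplicates without saying whether these were separate cultures, so the p-values rest on the spread from array to array alone, and this may be technical. A single cell line was used and each culture was at intermediate density when the chemical was added, which limits what the groups stand for.

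CYP1 enzymes add oxygen to flat aromatic molecules. Their genes are the best known targets of the aryl hydrocarbon receptor (Ah receptor), a transcription factor that waits in the cytoplasm with Hsp90, binds planar hydrocarbons such as BaP and MCA, moves to the nucleus, pairs with Arnt and binds a short DNA motif whose core is GCGTG. CYP1A1 and CYP1B1 then turn these hydrocarbons into reactive epoxides, a step through which the hydrocarbons become carcinogenic. CYP1B1 is the member of the family best known from fibroblasts and other mesenchymal cells.

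Cyp1a1 lies on chromosome 9, from 57687928 to 57703824, and Cyp1b1 on chromosome 17, from 79706940 to 79715061, in the mouse assembly GRCm38.p6. The 250 bases before the start that RefSeq's promoter table for that assembly uses for each gene are shown because both genes moved together and because the core motif of the Ah receptor can be looked for there. Capitals mark GCGTG or its reverse complement CACGC, and each sequence reads 5′ to 3′ on the gene's own strand. The first is chr9:57697363-57697612 on the plus strand and the second chr17:79715062-79715311 on the minus strand. For Cyp1a1 the start used in the promoter table lies inside the gene's annotated interval, so this window is not the one before the interval's first base.
Cyp1a1: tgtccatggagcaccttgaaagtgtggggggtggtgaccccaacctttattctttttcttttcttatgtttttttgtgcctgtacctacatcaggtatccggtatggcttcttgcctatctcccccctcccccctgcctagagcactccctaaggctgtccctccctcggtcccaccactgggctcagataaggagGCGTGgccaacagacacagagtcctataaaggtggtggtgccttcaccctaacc
Cyp1b1: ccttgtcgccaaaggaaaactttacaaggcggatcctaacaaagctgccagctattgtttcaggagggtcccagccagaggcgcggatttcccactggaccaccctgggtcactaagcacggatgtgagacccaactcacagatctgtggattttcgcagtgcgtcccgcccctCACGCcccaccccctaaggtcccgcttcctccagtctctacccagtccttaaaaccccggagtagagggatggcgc
Each window held 1 match, at bases -54 to -50 before the start in Cyp1a1 and at bases -76 to -72 in Cyp1b1, where it read CACGC. Over all 32851 promoters of the table, searched over the same 250 bases before the start, 28.2% held a match on either strand, so a match is a description of these letters and not a binding site. As background, the response elements studied most in mouse Cyp1a1 lie farther upstream than this window.

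The deposited intensities of the approaches were scaled differently, with a trimmed array mean of 153 to 188 in approach 1 and 500.0 in approach 2, so no level was compared and no response tested between them. Arrays varied less in approach 1, where a gene had a median SD within groups of 0.115 log2 units, than in approach 2, where it was 0.218. Arrays of a group correlated at 0.985 to 0.997 in the first approach, against 0.966 to 0.982 for the second, and no pair of arrays held identical values. All 8 fibroblast markers looked up, among them Col1a1, Col1a2 and Vim, lay above the median probe set on all 60 arrays, and none of the epithelial, leukocyte, endothelial and hepatocyte markers did so on all of them. Some of these did on part of the arrays, namely Epcam, an epithelial marker, on 53 of 60 (up to the 80th percentile), Apoa1 on 30, Adgre1 on 29, Cd68 on 23 and Krt8 on 13, and their part in the results was not tested. The number of arrays limits the precision of every value.

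Both genes were higher in 15 of the 16 treated groups than in the DMSO arrays of the same approach and time, and in no treated group was either lower. Cyp1a1 was the gene with the largest fitted rise of all 12650 genes tested in 14 of the 16 comparisons. Cyp1b1 was that gene in 0 of the 16 and was among the 10 largest rises in 9. Where Cyp1b1 was called, its lowest place was 67th. The changes of Cyp1a1 ran from 0.71 to 7.35 log2 units where it was called, while those of Cyp1b1 ran from 0.61 to 2.27. The exception for both was 0.2 µM DAT at 120 h. A gene is called here when its adjusted p in the limma fit, after Benjamini-Hochberg adjustment over all genes tested, was under 0.05, and Cyp1a1 and Cyp1b1 were the only 2 genes called higher in at least 15 comparisons. In the same 15 comparisons every treated array lay above every DMSO array for both genes, in deposited intensity and on the normalized scale alike. In the 16th comparison neither gene separated on either scale. The share of all genes with every treated array above every DMSO array, on the normalized scale, was, in approach 1, 7.15% with AAF, 13.5% with BaP, 8.58% with DAT and 5.64% with MCA at the early time. At the late time it was 6.33% with AAF, 19.3% with BaP, 15.4% with DAT and 23.6% with MCA. In approach 2 the shares were 2.8% with AAF, 8.66% with BaP, 12.8% with DAT and 7.94% with MCA early, and 7.17% with AAF, 10.2% with BaP, 6.92% with DAT and 8.17% with MCA late. A separation without overlap was thus common among genes, and the sizes of the members' changes are given beside it. Between treated groups such a share was counted only for MCA and BaP at 0.1 µM for 120 h. The other orders and overlaps of treated groups given below are therefore descriptions.

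In DMSO cells of approach 1 the single Cyp1a1 probe set was dim. It had deposited intensities of 13.8, 15.6 and 16.1 at 120 h and of 39.0, 24.0 and 31.8 at 24 h, at the 24.5th to 47.8th percentile of all probe sets on the array. Over both approaches the probe set lay above its array's median on 45 of 48 treated arrays and on 3 of 12 DMSO arrays. A fold over such a level depends on the constant of 16 that was added to each intensity before taking log2, which understates the change of a dim gene.

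At 24 h in approach 1, Cyp1a1 had intensities of 1751, 1830 and 1733 with 0.5 µM BaP and of 1642, 1801 and 1528 with 2 µM MCA, against the 3 DMSO values of 39.0 or less. The ranges of BaP and MCA overlapped each other and lay far above those of the other groups. The log2 change against DMSO was 5.21 ± 0.12 (SE, n = 3 per group) with BaP (adjusted p = 2.16e-22, in a comparison where 4.51% of genes were called higher). With MCA it was 5.11 ± 0.12 (adjusted p = 3.64e-22, 1.08% of genes called higher). With 50 µM DAT the arrays gave 265, 256 and 239, a middle level that overlapped no other group. The change was 2.48 ± 0.12 (adjusted p = 4.09e-14), and Cyp1a1 and Cyp1b1 were 2 of only 12 genes called higher there (0.0949%). With 25 µM AAF the arrays gave 73.7, 57.1 and 51.8, which were above every DMSO array but below every other treated one. This change of 0.71 ± 0.12 was the smallest called (adjusted p = 0.00304, 0.609% of genes called higher), and 3 other genes had a larger fitted rise. With a constant of 64 or of 1 in place of 16 it was 0.40 or 0.96, and it was called with each. It was not called when the 6 arrays of the comparison were fitted alone (0.71, adjusted p = 0.142).

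At 120 h in approach 1 the order of the groups was the same at the low end, and BaP stood alone at the top. Cyp1a1 had intensities of 2368, 2800 and 2588 with 0.5 µM BaP, 1405, 1508 and 1360 with 2 µM MCA, 435, 393 and 456 with 50 µM DAT and 92.9, 106 and 145 with 25 µM AAF, against 13.8, 15.6 and 16.1 in DMSO. No neighbouring groups overlapped in this order. The log2 change was 6.47 ± 0.12 with BaP (adjusted p = 7.75e-25, 13.8% of genes called higher). It was 5.56 ± 0.12 with MCA (adjusted p = 4.1e-23, 18.8% called higher) and 3.91 ± 0.12 with DAT (adjusted p = 3.8e-19, 11.7% called higher). With AAF it was 2.01 ± 0.12 (adjusted p = 7.13e-12), the largest of the 41 rises called (0.324% of genes), and it was 1.13 with a constant of 64 and 2.80 with 1.

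**Figure D1:**
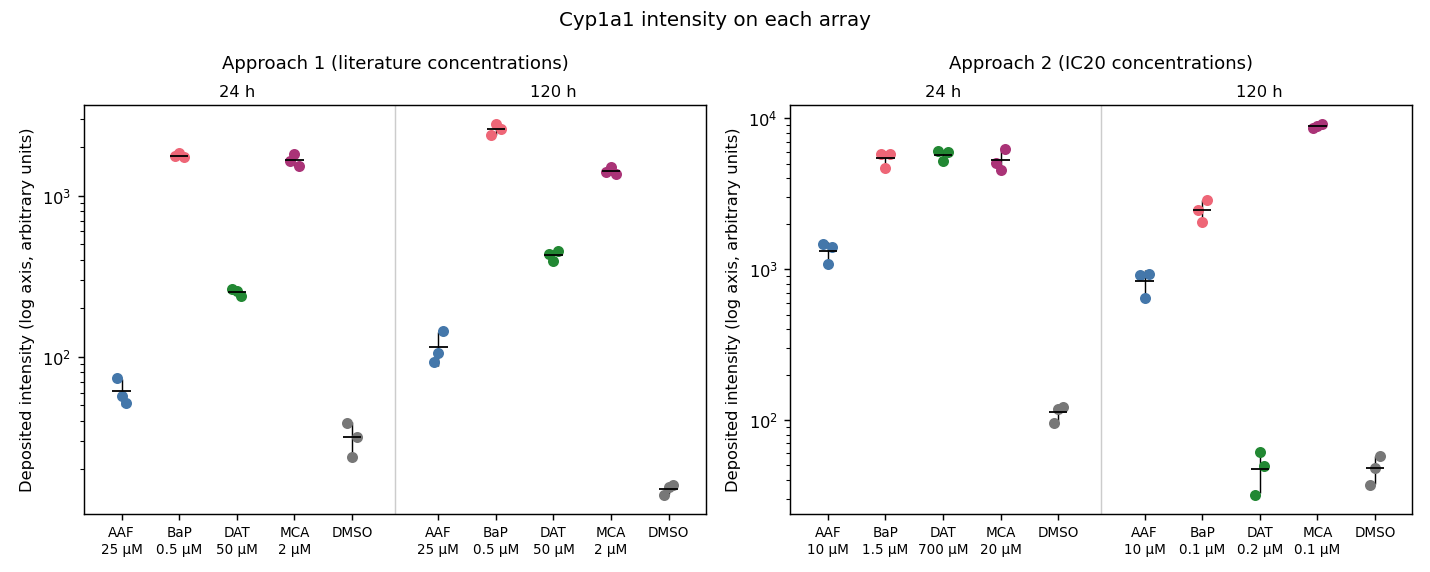
Deposited intensity of the Cyp1a1 probe set on each of the 60 arrays (log axis, arbitrary units), by treatment, time and approach; points are arrays, horizontal lines the mean and vertical lines the SD of 3 arrays. Only 0.2 µM DAT at 120 h overlaps the DMSO arrays of its time, and the 4 treatments of approach 1 at 120 h form separate steps between 92.9 and 2800.

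At 24 h in approach 2, 3 of the 4 treatments brought Cyp1a1 to levels that overlapped. Its intensities were 6045, 5218 and 5983 with 700 µM DAT, 5800, 4694 and 5785 with 1.5 µM BaP and 5041, 4543 and 6253 with 20 µM MCA, against 96.0, 119 and 122 in DMSO. With 10 µM AAF they were 1467, 1079 and 1398, below those of the other chemicals and above DMSO without overlap. The log2 changes against DMSO were 5.15 ± 0.17 with DAT (adjusted p = 3.33e-17, 4.17% of genes called higher), 5.10 ± 0.17 with BaP (adjusted p = 4.18e-17, 1.17% called higher) and 5.04 ± 0.17 with MCA (adjusted p = 5.76e-17, 0.625% called higher). The change with AAF was 3.12 ± 0.17 (adjusted p = 6e-12). There, 3 genes were called higher (0.0237%) and none lower. They were Cyp1a1, Cyp1b1 and Tiparp, an ADP-ribose transferase that is itself an Ah receptor target. Their changes were 3.12, 0.89 and 0.51 log2 units, and they are named because of their small number. Other settings called 1 to 22 genes in that comparison.

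At 120 h in approach 2 the concentrations of BaP, DAT and MCA were lower than at 24 h, that of AAF was the same, and the spread between treatments was wider. MCA at 0.1 µM gave Cyp1a1 intensities of 8641, 8967 and 9233, the highest of the 30 arrays of approach 2. BaP at 0.1 µM gave 2476, 2049 and 2871, and 10 µM AAF gave 915, 643 and 936, against 37.3, 48.3 and 57.8 in DMSO. These groups did not overlap each other or DMSO. The log2 change was 7.35 ± 0.17 with MCA (adjusted p = 4.87e-21, 1.31% of genes called higher). It was 5.45 ± 0.17 with BaP (adjusted p = 8.1e-18, 0.933% called higher) and 3.82 ± 0.17 with AAF (adjusted p = 4.8e-14, 0.174% called higher). With 0.2 µM DAT the arrays gave 31.8, 61.4 and 49.6, which overlapped DMSO. The difference was 0.01 log2 units with 95% limits of -0.34 to 0.36 (adjusted p = 0.999). In that comparison limma called 0% of genes higher and none lower, while 642 genes had an unadjusted p under 0.05. A fit blocked on the replicate number called 216 genes there, and one shared by all arrays called 5.

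Unlike Cyp1a1, Cyp1b1 was bright in untreated cells. Its leading probe set, 1416612_at, lay between the 95.3th and the 99.8th percentile of all probe sets on each of the 60 arrays. At 24 h in approach 1 its intensities were 4485, 4425 and 4456 with 2 µM MCA, 4175, 4132 and 4086 with 0.5 µM BaP, 2591, 2561 and 2598 with 50 µM DAT and 2007, 1986 and 1908 with 25 µM AAF, against 1247, 1125 and 1503 in DMSO. No groups overlapped in these deposited intensities. MCA and BaP lay close, with normalized log2 means of 12.12 ± 0.016 with MCA and 12.06 ± 0.022 with BaP (SD, n = 3 each). This difference was not tested. On the second Cyp1b1 probe set, 1416613_at, they overlapped, with 1357 to 1823 for MCA and 1408 to 1510 for BaP. The log2 changes were 1.79 with MCA (adjusted p = 7.89e-18), 1.73 with BaP (adjusted p = 1.97e-17), 0.98 with DAT (adjusted p = 2.87e-11) and 0.61 with AAF (adjusted p = 2.79e-06), each ± 0.06 (SE, n = 3 per group). The AAF change was not called when its 6 arrays were fitted alone (0.61, adjusted p = 0.0724). For each treatment against DMSO, the share of genes called higher is the one given with Cyp1a1 above.

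At 120 h in approach 1, BaP was the highest treatment for Cyp1b1 as it was for Cyp1a1. The intensities were 7347, 7310 and 7586 with 0.5 µM BaP, 4401, 4775 and 4584 with 2 µM MCA, 3437, 3100 and 3571 with 50 µM DAT and 2938, 2780 and 2823 with 25 µM AAF, against 1687, 1404 and 1414 in DMSO. Again no neighbouring groups overlapped. The changes were 2.27 with BaP (adjusted p = 1.67e-20), 1.56 with MCA (adjusted p = 1.91e-16), 1.19 with DAT (adjusted p = 2.62e-13) and 0.89 with AAF (adjusted p = 2.63e-10), each ± 0.06. Genes called higher made up 13.8% with BaP, 18.8% with MCA, 11.7% with DAT and 0.324% with AAF. Among the rises of all genes tested, that of Cyp1b1 was 67th with MCA and 50th with DAT. The change of 2.27 with BaP was the largest of Cyp1b1 in approach 1, and the mean deposited intensity was 4.94 times that of DMSO.

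At 24 h in approach 2 the highest Cyp1b1 level came with DAT. The intensities were 17407, 14754 and 13254 with 700 µM DAT, 12519, 11454 and 10666 with 1.5 µM BaP, 11502, 10453 and 11344 with 20 µM MCA and 9691, 8360 and 7824 with 10 µM AAF, against 4796, 4680 and 4350 in DMSO. BaP and MCA overlapped, and the other neighbours did not. The log2 changes were 1.79 with DAT (adjusted p = 2.95e-14), 1.43 with BaP (adjusted p = 3.99e-12), 1.31 with MCA (adjusted p = 2.92e-11) and 0.89 with AAF (adjusted p = 2.24e-07), each ± 0.08. With each array centred on its median instead, which lowered the median of all genes in this comparison to -0.09, the AAF change was 0.80 and was not called (adjusted p = 0.197).

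At 120 h in approach 2 Cyp1b1 had intensities of 19317, 18852 and 15569 with 0.1 µM MCA, 14284, 14259 and 13252 with 0.1 µM BaP and 11205, 11960 and 10357 with 10 µM AAF, against 5823, 6152 and 5349 in DMSO. None of these overlapped. With 0.2 µM DAT they were 6349, 6775 and 5898, which overlapped DMSO. The changes were 1.57 with MCA (adjusted p = 6.89e-13), 1.27 with BaP (adjusted p = 9.81e-11) and 0.95 with AAF (adjusted p = 6.56e-08), each ± 0.08. With DAT the difference was 0.14 with 95% limits of -0.03 to 0.31 (adjusted p = 0.948).

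**Figure D2:**
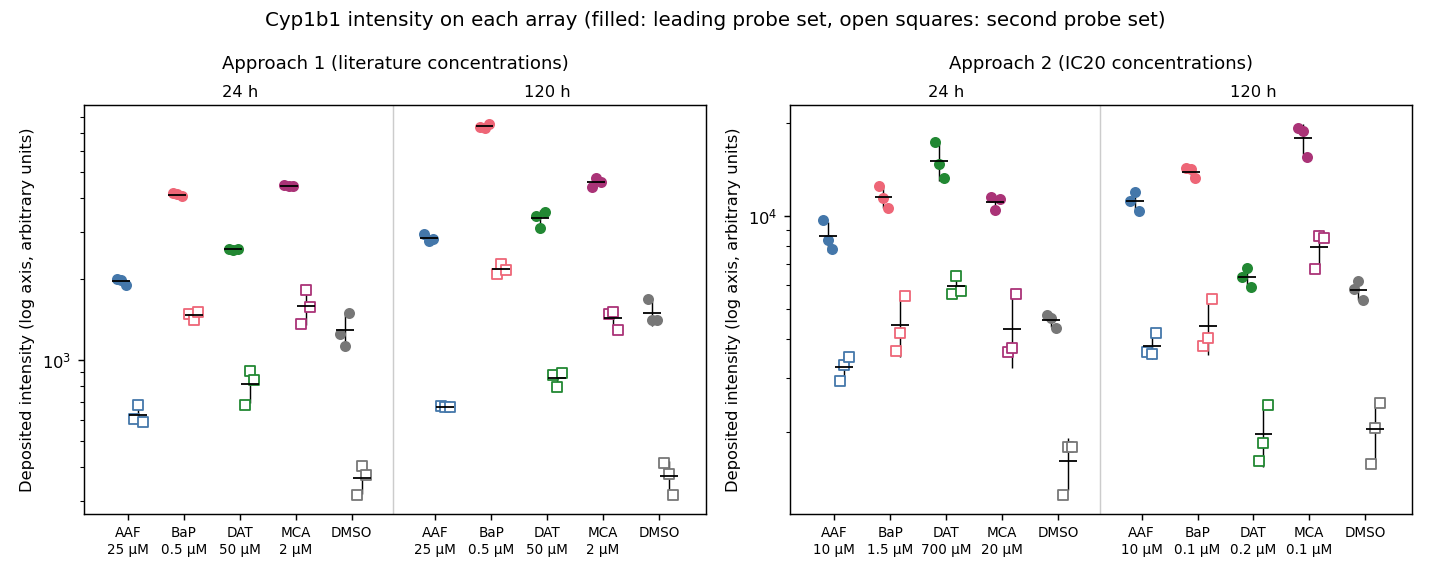
Deposited intensity of 2 Cyp1b1 probe sets on each array (log axis, arbitrary units), by treatment, time and approach; filled circles show the leading and open squares the second probe set, with horizontal lines for the mean and vertical lines for the SD of 3 arrays. Both probe sets place the treated groups above DMSO, except 0.2 µM DAT at 120 h.

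The second Cyp1b1 probe set, 1416613_at, was dimmer but also above the median of every array. In approach 1 it had 2094 to 2270 with 0.5 µM BaP at 120 h, against 314 to 415 in DMSO, and in approach 2 it had 6724 to 8654 with 0.1 µM MCA at 120 h, against 1578 to 2490 in DMSO. When all 28499 probe sets that passed the brightness filter were tested as separate features, it was called higher in 14 of 16 comparisons, with a median change of 1.29 log2 units, the same median as the leading probe set. The comparison in which the probe sets parted was 10 µM AAF at 24 h, where 1416613_at differed by 0.97 ± 0.19 (adjusted p = 0.144) and 1416612_at by 0.89 ± 0.08 (adjusted p = 7.85e-07). Its arrays gave 2925 to 3500 with AAF, against 1247 to 1787 in DMSO, without overlap. The third probe set, 1432081_at, had intensities of 5.25 to 83.3 and lay above the array median on 5 of 60 arrays, all of them treated. Since it passed the filter only through the groups in which it was high, it gets no test here.

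**Figure D3:**
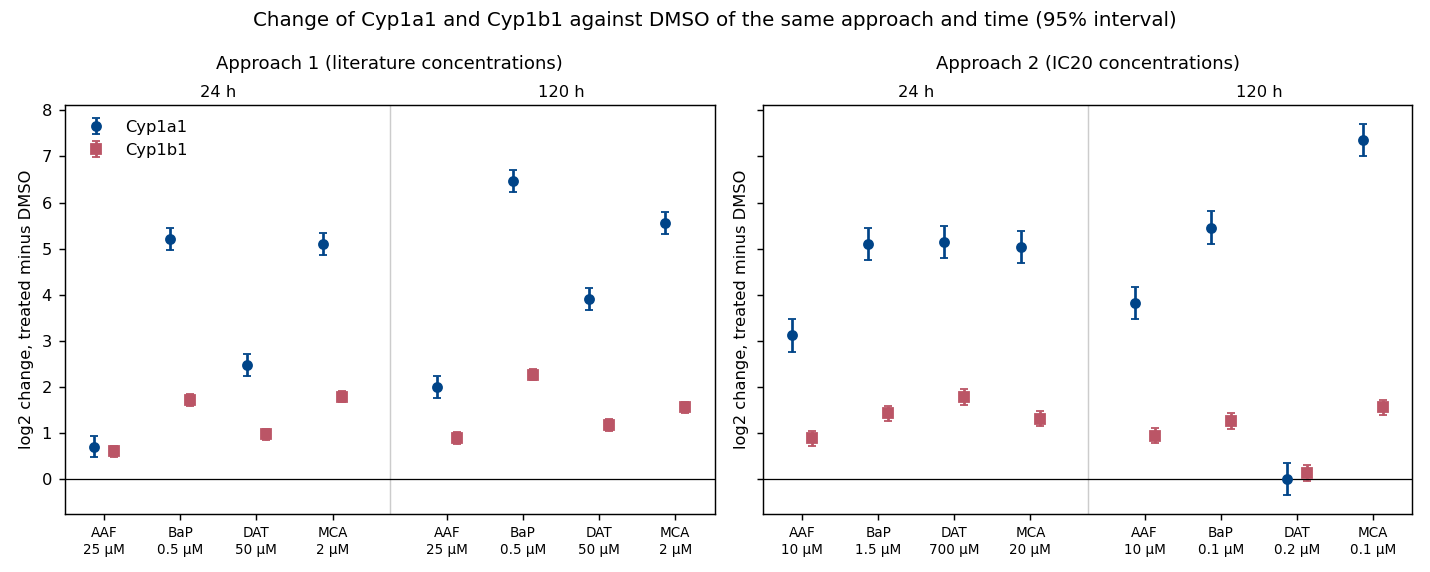
log2 change of Cyp1a1 (circles) and Cyp1b1 (squares) against DMSO of the same approach and time, with 95% limits, for the 16 treatments. Cyp1a1 changed by up to 7.35 and Cyp1b1 by up to 2.27, and with 0.2 µM DAT the limits of both include 0.

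Set side by side, the genes ranked the treatments in nearly the same order within each approach and time. In approach 1 at 24 h both had BaP and MCA above DAT and DAT above AAF, and at 120 h both had BaP above MCA, MCA above DAT and DAT above AAF. In approach 2 at 24 h DAT had the highest mean of both, and at 120 h both had MCA above BaP and BaP above AAF. AAF, given at 25 µM in approach 1 and at 10 µM in approach 2, gave Cyp1a1 changes of 2.01 at 120 h and 0.71 at 24 h at the first concentration, and of 3.82 at 120 h and 3.12 at 24 h at the second. For Cyp1b1 these were 0.89 at 120 h and 0.61 at 24 h, and 0.95 at 120 h and 0.89 at 24 h. The approaches differed in scaling, spread and controls as well as in concentration, so this difference was not tested.

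For the 5 treatments given at the same concentration at both times, the response against DMSO at 120 h was compared with that at 24 h. The Cyp1a1 response was larger at 120 h by 1.43 ± 0.16 log2 units with 50 µM DAT (adjusted p = 2.32e-06, with 4.9% of genes called higher), by 1.30 ± 0.16 with 25 µM AAF (adjusted p = 0.000236, and 0.73 with a constant of 64 or 1.84 with 1) and by 1.25 ± 0.16 with 0.5 µM BaP (adjusted p = 6.77e-06, 4.99% called higher). With 25 µM AAF, Cyp1a1 was 1 of 5 genes called higher (0.0395%), and these, named for their small number, were Cyp1a1, Cd300lb, Ptgs2, Snhg3 and Atad5. Another 2 genes were called lower there. With 2 µM MCA the Cyp1a1 difference was 0.45 ± 0.16 (adjusted p = 0.042, 14.8% of genes called higher), a call that was lost in 7 of 10 other settings and in 9 of 12 fits that left out 1 array. Without replicate 1 of the approach 1 DMSO arrays at 24 h it was 0.34 (adjusted p = 0.13). With 10 µM AAF in approach 2 the difference was 0.70 ± 0.24 (adjusted p = 0.999), and limma called 0% of genes there, with 494 at an unadjusted p under 0.05. The replicate block called 70 genes and the shared fit 5, neither of them including Cyp1a1.

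The treated levels behind these differences did not all go up with time. Mean Cyp1a1 intensity was 2585 ± 216 at 120 h and 1771 ± 51.8 at 24 h with 0.5 µM BaP (SD, n = 3 each), and 428 ± 32.0 at 120 h and 253 ± 13.2 at 24 h with 50 µM DAT. With 2 µM MCA it was 1424 ± 75.8 at 120 h and 1657 ± 138 at 24 h, so the treated level was lower at the later time. In approach 2, 10 µM AAF gave 831 ± 163 at 120 h and 1314 ± 207 at 24 h. The DMSO level of Cyp1a1 was itself lower at 120 h and enters each of these differences in response.

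For Cyp1b1 the response was larger at 120 h with 0.5 µM BaP, by 0.55 ± 0.09 (adjusted p = 8.47e-05). With 2 µM MCA it was smaller, by a difference of -0.24 ± 0.09 (adjusted p = 0.0431, with 13.3% of genes called lower), and this call was lost in 6 of 10 other settings and in 8 of 12 fits without 1 array. Without replicate 1 of the approach 1 DMSO arrays at 120 h the MCA difference was -0.14 (adjusted p = 0.185). The differences of 0.28 ± 0.09 with 25 µM AAF (adjusted p = 0.333) and 0.05 ± 0.11 with 10 µM AAF (adjusted p = 0.999) were not called. The difference of 0.21 ± 0.09 with 50 µM DAT (adjusted p = 0.156) was not called either, but without the same DMSO array it was 0.30 and was called (adjusted p = 0.0163). That array, with an intensity of 1687 beside 1404 and 1414, stood apart from the others of its group.

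In cells kept in DMSO alone, the genes moved in opposite directions between 24 h and 120 h. Cyp1a1 had 13.8, 15.6 and 16.1 at 120 h and 39.0, 24.0 and 31.8 at 24 h in approach 1, a change of -0.64 ± 0.12 log2 units (adjusted p = 2.72e-05, with 28.5% of genes called lower). In approach 2 it had 37.3, 48.3 and 57.8 at 120 h and 96.0, 119 and 122 at 24 h, a change of -1.44 ± 0.17 (adjusted p = 1.81e-07, with 22.4% called lower). The arrays of the different times did not overlap in either approach, in deposited intensity or on the normalized scale. On the normalized scale this was so in this direction for 29.6% of genes in approach 1 and 27.3% in approach 2. Cyp1b1 was higher at 120 h by 0.26 ± 0.06 in approach 1 (adjusted p = 0.000682, with 29.3% of genes called higher) and by 0.51 ± 0.08 in approach 2 (adjusted p = 1.28e-05, with 17.8% called higher), but with each array centred on its median these were 0.14 (adjusted p = 0.0968) and -0.13 (adjusted p = 0.541). Median centring moved the median of all genes to -0.35 in the second case, and relative to that median Cyp1b1 was higher by 0.22. On either scale its DMSO arrays overlapped between the times in approach 1 and did not in approach 2. On the normalized scale, 29.8% of genes in approach 1 and 21.5% in approach 2 were higher at 120 h without overlap. The Cyp1a1 change depended on the added constant: approach 1 gave -0.29 with 64 and -1.06 with 1, and approach 2 gave -0.94 with 64 and -1.75 with 1. With so many genes called between the times (57.8% and 40.2% in either direction), a call is not unusual here.

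**Figure D4:**
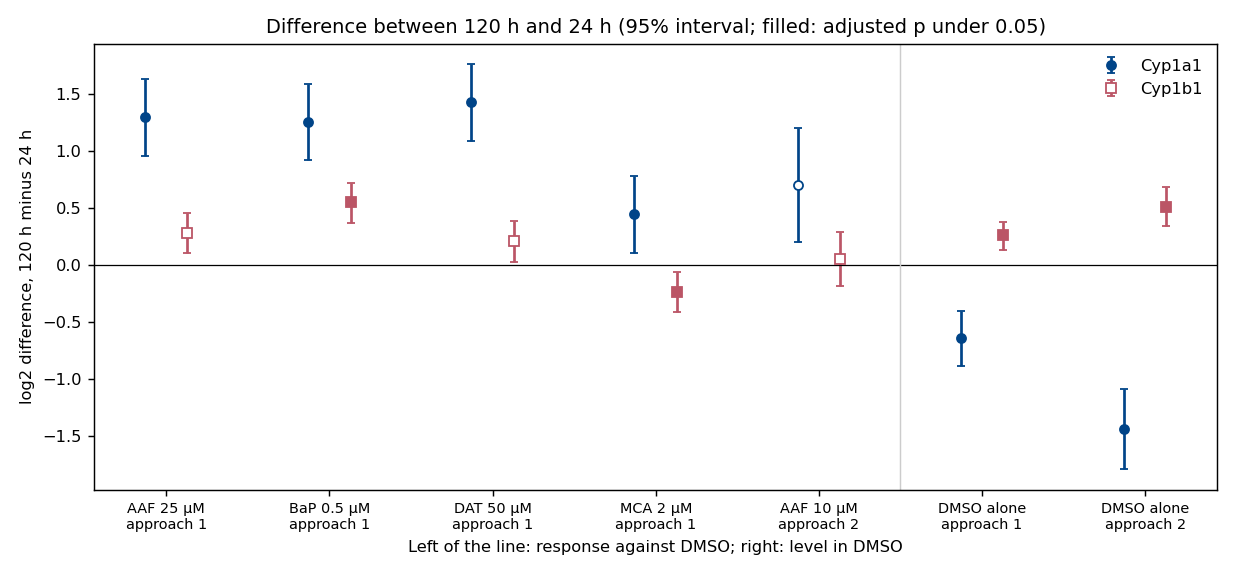
log2 difference between 120 h and 24 h with 95% limits, for the response against DMSO at 5 concentrations given at both times and for the DMSO level itself; filled symbols were called. The Cyp1a1 response differences lie between 0.45 and 1.43, and the DMSO level changed by -0.64 and -1.44.

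A ratio of 3′ to 5′ control probe sets of beta-actin, a measure of RNA quality, also differed between some of these groups. In approach 2 its mean log2 value was 0.54 ± 0.12 in DMSO at 120 h and 0.29 ± 0.07 in DMSO at 24 h (SD, n = 3 each). In the same approach it was 0.37 to 0.42 in the treated groups at 24 h, against that DMSO value of 0.29. In approach 1 it was 0.31 ± 0.02 in DMSO at 120 h and 0.29 ± 0.04 at 24 h. With 0.5 µM BaP at 120 h in that approach the ratio was 0.44 ± 0.06, against that 0.31. The same ratio for Gapdh was -0.18 ± 0.02 at 120 h and -0.28 ± 0.03 at 24 h in DMSO of approach 1, while in approach 2 it was -0.46 ± 0.08 at 120 h and -0.32 ± 0.04 at 24 h. The part of these ratios in the members' changes was not tested.

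MCA and BaP at 0.1 µM for 120 h in approach 2 were the only pair of related compounds at a matched concentration and time. Both are flat hydrocarbons of fused rings, and MCA carries a methyl group that BaP lacks. Cyp1a1 had 8641, 8967 and 9233 with MCA and 2476, 2049 and 2871 with BaP. The difference of 1.90 ± 0.17 log2 units (95% limits 1.55 to 2.25, adjusted p = 4.14e-07) was the largest rise of all genes tested, in a comparison where 4 genes were called higher (0.0316%). These 4, named for their small number, were Cyp1a1 at 1.90, Tiparp at 0.91, Efnb1 at 0.76 and Adamts4 at 0.73. Cyp1b1 had 19317, 18852 and 15569 with MCA and 14284, 14259 and 13252 with BaP. These did not overlap here or on the normalized scale, and on that scale 1.87% of all genes were higher with MCA without overlap. Its difference of 0.30 (95% limits 0.13 to 0.47) was not called (adjusted p = 0.353), but was called when the fit was blocked on the replicate number (0.30, adjusted p = 0.00379) and in the shared fit (0.30, adjusted p = 0.0372). At the other concentrations the compounds were given at different doses. The Cyp1a1 changes were 5.11 with 2 µM MCA and 5.21 with 0.5 µM BaP at 24 h, and 5.56 with that MCA and 6.47 with that BaP concentration at 120 h, in approach 1. For 24 h in approach 2 these changes were 5.04 with MCA at 20 µM and 5.10 with BaP at 1.5 µM.

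Of 10 other genes listed as Ah receptor targets, 8 had a probe set of their own and 5 were bright enough to be tested. Of these, Aldh3a1 was dim on most arrays and lay above the array median on 25 of 60, while Tiparp, Nqo1, Nfe2l2 and Slc7a5 did so on all 60. How many of all genes were called as often was counted for the members alone. The numbers of calls for listed genes, here and in the paragraphs that follow, are therefore descriptions. Tiparp was called higher in 11 of the 16 comparisons, Nqo1, a quinone reductase, in 10, Nfe2l2, which encodes the Nrf2 regulator of antioxidant genes, in 10, Aldh3a1, an aldehyde dehydrogenase, in 6, and the amino acid transporter gene Slc7a5 in 1. None was called lower, though with the block Slc7a5 was called lower in 2 comparisons. Cyp1a2, Ahrr, the receptor's repressor, and Cyp2s1 did not rise above the array median on any of the 60 arrays. The median change of the 5 was 1.40 with 0.5 µM BaP at 24 h, where the median of all genes was -0.00, and 1.03 with 0.1 µM MCA at 120 h, where it was 0.02. With 25 µM AAF at either time, with 50 µM DAT at 24 h, with 10 µM AAF at 120 h and with 0.2 µM DAT, none of the 5 was called. With the replicate block that held for 0.2 µM DAT alone. The block called Aldh3a1 higher with 25 µM AAF at 24 h, and Tiparp, Nqo1 and Nfe2l2 with 25 µM AAF at 120 h. It called these 3 and Aldh3a1 higher with 50 µM DAT at 24 h, and with 10 µM AAF at 120 h it called Tiparp and Nfe2l2 higher and Slc7a5 lower.

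Tiparp had the same order of BaP and MCA as Cyp1a1 at 120 h in approach 1, and Aldh3a1 and Nqo1 the opposite one. Tiparp rose by 1.47 ± 0.05 with 0.5 µM BaP at 120 h (adjusted p = 1.77e-17) and by 0.24 ± 0.05 with 50 µM DAT at that time (adjusted p = 0.00126), where Cyp1a1 changed by 6.47 and 3.91. With 2 µM MCA at 120 h Tiparp rose by 0.92 ± 0.05 (adjusted p = 2.29e-13). Aldh3a1 rose most with 2 µM MCA at 120 h, by 3.03 ± 0.17 (adjusted p = 1.4e-13), against 1.28 ± 0.17 with BaP at that time (adjusted p = 1.29e-06). Nqo1 also had its largest change there, at 1.99 ± 0.13 (adjusted p = 1.5e-12), against 0.97 ± 0.13 with BaP (adjusted p = 1.02e-06). Cyp1a1 had the opposite order in these 2 groups, with 5.56 for MCA and 6.47 for BaP.

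Of 7 genes for the receptor and its partners, 4 could be tested. Ahr, the receptor itself, fell by 0.33 ± 0.08 log2 units with 0.5 µM BaP at 24 h (adjusted p = 0.00667, 4.88% of genes called lower), by 0.53 ± 0.08 with BaP at 120 h (adjusted p = 7.57e-06, 12.9% called lower) and by 0.43 ± 0.08 with 2 µM MCA at 120 h (adjusted p = 8.66e-05, 20.2% called lower). It was called lower in these 3 of 16 comparisons, and in 6 with the replicate block. Arnt2, a paralog of the receptor's partner, was called lower in 2, and Arnt in 1 (3 with the block). Hsp90aa1, a chaperone of the receptor, was called higher with 2 µM MCA at 120 h, by 0.37 ± 0.09 (adjusted p = 0.00146, 18.8% of genes called higher). With the block Hsp90aa1 was called higher in 3 comparisons and lower in 3.

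Of 13 genes for enzymes that work with or after CYP1 enzymes, 8 were tested. Gstm1, a glutathione transferase, was called higher in 9 comparisons and lower in none. Its change was 0.72 ± 0.05 with 2 µM MCA at 120 h (adjusted p = 1.19e-11, in a comparison where 18.8% of genes were called higher). Ephx1, the microsomal epoxide hydrolase that acts on the epoxides CYP1 enzymes make, was called higher in 7, or in 11 with the replicate block. It rose by 0.64 ± 0.07 with 0.5 µM BaP at 24 h (adjusted p = 1.42e-07, 4.51% of genes called higher). Gstp1 and Cbr1, another transferase and a carbonyl reductase, were each called higher in 4. Cyb5r3 was called higher in 3 and lower in 1. It fell by 0.36 ± 0.06 with 0.5 µM BaP at 120 h (adjusted p = 1.51e-05, 12.9% of genes called lower).

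Few other cytochrome P450 genes were bright in these cells. Of 71 with a probe set of their own, 23 were tested, and the most frequent calls were Cyp2c55, higher in 6 comparisons (10 with the block), and Cyp51, lower in 5 (8 with the block). Cyp2c55 rose by 0.95 ± 0.07 with 0.5 µM BaP at 120 h (adjusted p = 4.68e-11, 13.8% of genes called higher). Cyp51, the lanosterol demethylase of cholesterol synthesis, fell by 0.66 ± 0.05 with 2 µM MCA at 120 h (adjusted p = 5.62e-12, 20.2% of genes called lower). Cyp39a1 was called lower in 2 comparisons, and Cyp7b1 was called higher in 1 and lower in 1.

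**Figure D5:**
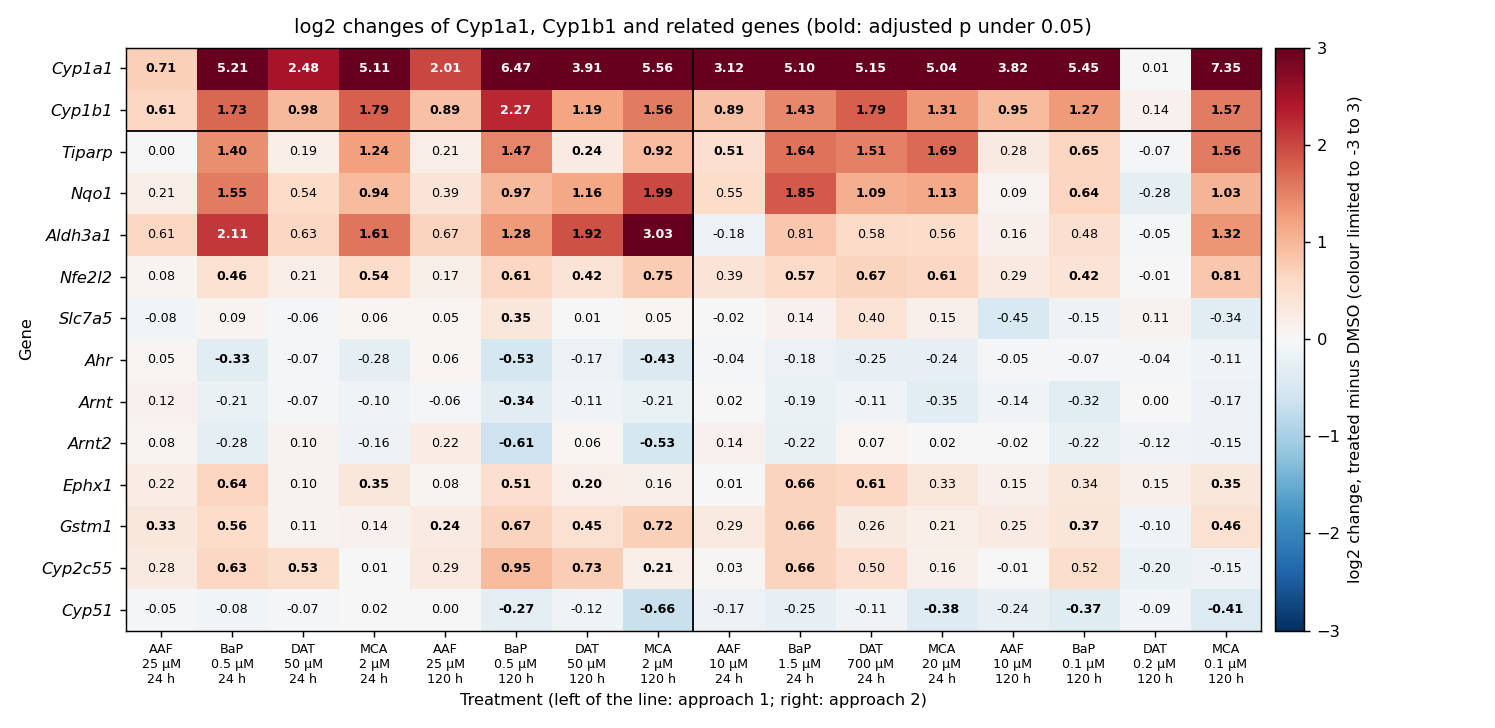
log2 changes against DMSO in the 16 treatments for Cyp1a1, Cyp1b1 and 12 related genes, with the value in each cell, bold where called, and a colour scale that ends at a change of 3 in either direction. The members have the most bold cells, 15 each, and the column of 0.2 µM DAT has none.

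The genes whose pattern was most like that of Cyp1a1 were sought by Pearson's correlation over the 60 arrays, after centring log2 values on the 15 arrays of the same approach and time. The points share arrays, treatments and DMSO groups, and the values are descriptions with no p. Of 12649 other genes, Cyp1b1 was the nearest to Cyp1a1, with 0.957 over all arrays, 0.973 in approach 1 and 0.956 in approach 2, and Cyp1a1 was the nearest to Cyp1b1. After it came Ier3, an immediate early gene, with 0.925, Ptgs2, the inducible cyclooxygenase, with 0.923, and Chil1, a chitinase-like protein, and Nfe2l2, each with 0.920. For Cyp1b1 the next were Ier3 with 0.928, Ptgs2 with 0.906, Tiparp with 0.887 and Gpc1, a glypican, with 0.882. The lowest were Zfp521, a zinc finger protein, with -0.858, and Tmem164 with -0.849 for Cyp1a1, and Ankrd44 with -0.854 and Zfp521 with -0.823 for Cyp1b1. Ier3 was called higher in 14 of the 16 comparisons, with fitted changes of 0.14 to 1.54. Ptgs2 and Chil1 were each called higher in 12, and Zfp521 was called lower in 9. These genes were picked by their correlation with the members on the same arrays. Frequent calls follow from that choice and add no support.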

How the data were processed

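Total RNA of 60 samples was labelled with biotin and hybridised to Affymetrix single-colour arrays, per the labels. The deposited values are intensities, unlogged, of 45101 probe sets on each array. The submitters' processing notes name GCOS, while background correction, summarization and scaling target are not given in the sources used here. Since the approaches differed in scale, each approach was normalized and fitted alone.

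Names came from the platform's annotation table, and old symbols were replaced where the gene identifier allowed. Of the probe sets, 34958 carried a single symbol and 9211 are unnamed here, while the 932 with several symbols were not used. The brightest probe set on average stood for each gene. It was tested where that probe set lay above the array's median on at least 3 arrays, which left 12650 genes, members included. Values were log2(intensity + 16), so log2 changes understate those of dim genes, and were quantile normalized within the approach. limma 3.58.1 in R 4.3.3 was fitted to the 30 arrays of an approach (10 group means, 20 residual degrees of freedom), with a mean-variance trend, two-sided tests and Benjamini-Hochberg adjustment over all genes at a threshold of 0.05. Intervals are 95% limits from the spread shared by the 10 groups.

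There were 24 comparisons: 16 of treated with DMSO arrays, 5 of responses between times, 2 of DMSO arrays between times, and 1 of MCA with BaP. The fit was tested on simulated data with independent noise on each array. Same-numbered arrays of the real data deviated together in most treated comparisons, so the simulation cannot show how the fit behaves under such pairing. Alternatives changed the constant, the normalization, the filter, the features, the arrays fitted and the trend, added the replicate number as a block, or left out each array in turn. The labels number the arrays of a group 1 to 3. In 12 of the 16 treated comparisons every same-numbered pair of arrays deviated from its group means with a correlation over 0.1. The labels give no meaning to a shared number, so this pairing rests on the data alone.

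The genes described, the gene lists and the tests were chosen with earlier results of these data known. Genes were named by their place in a list, by likeness of pattern, or where 5 or fewer genes, a member among them, were called higher. From a list these were the genes called most often in either direction, up to 4 with ties for the last place kept. Slc7a5 was added as the only other target called. By likeness they were the 5 highest and 2 lowest correlations. Related genes in the plot of log2 changes by treatment were chosen after their values were seen.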

Additional observations from a re-analysis of the deposited data

Results flagged for a closer look

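For 6 results the response against DMSO differed between 120 h and 24 h by a test of the difference itself. The Cyp1a1 response at 120 h exceeded that at 24 h by 1.30 log2 units with 25 µM AAF, by 1.25 with 0.5 µM BaP, by 1.43 with 50 µM DAT and by 0.45 with 2 µM MCA. The Cyp1b1 response differed by 0.55 with 0.5 µM BaP and by -0.24 with 2 µM MCA. The calls with MCA were lost in 7 of 10 other settings for Cyp1a1 and in 6 of 10 for Cyp1b1. In that comparison 14.8% of genes were called higher and 13.3% lower. These 4 treatments of approach 1 share 2 DMSO groups, in which Cyp1a1 was lower at 120 h by a change of -0.64, and this change enters each of the 4 Cyp1a1 differences, which are therefore not independent of each other.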

How the results depend on the processing

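For the 30 calls of the members against DMSO, 507 of 510 values from other settings and left-out arrays kept the direction and the call, and the 2 differences not called stayed so in 34 of 34. The other 3 were 25 µM AAF at 24 h when the 6 arrays were fitted alone (Cyp1a1 0.71, adjusted p = 0.142; Cyp1b1 0.61, adjusted p = 0.0724) and Cyp1b1 with 10 µM AAF at 24 h under median centring (0.80). The difference in response to 2 µM MCA between the times was near the threshold for both genes. For Cyp1a1 it was not called with a constant of 64 (0.10), on deposited values (0.39), or under median centring, without the filter, with all probe sets, in the shared fit or without the trend (0.45 each), and it was 0.34 to 0.58 with 1 array left out. For Cyp1b1 it was not called on deposited values (-0.18), under median centring (-0.12), or without the filter, with all probe sets, in the shared fit or without the trend (-0.24 each), and it was -0.32 to -0.14 with 1 array left out. The Cyp1b1 difference in response to 50 µM DAT was 0.12 to 0.30 with 1 array left out. Under median centring the Cyp1b1 change in DMSO was 0.14 in approach 1 and reversed to -0.13 in approach 2. The cause was not tested. The Cyp1b1 difference between 0.1 µM MCA and 0.1 µM BaP was called in the shared fit (0.30) and with the replicate block (0.30), and the block changed no other call of a member.

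Median centring moved the median of all genes by at most 0.12 log2 units against the main values in treated comparisons and by 0.30 over all 24, and deposited values by at most 0.04 and 0.16. How many genes were called depended more on the setting, and the highest counts came mostly with the replicate block. In approach 1 at 24 h, AAF had 115 genes called (0 to 698 over the settings), BaP 1188 (370 to 2102), DAT 22 (3 to 325) and MCA 279 (64 to 643). At 120 h AAF had 45 (3 to 126), BaP 3375 (1671 to 4484), DAT 3004 (1264 to 4188) and MCA 4941 (2902 to 5973). In approach 2 at 24 h AAF had 3 (1 to 22), BaP 299 (76 to 1345), DAT 989 (367 to 2894) and MCA 164 (41 to 975). At 120 h there AAF had 69 (2 to 1080), BaP 180 (23 to 1346), DAT 0 (0 to 216) and MCA 313 (100 to 1252). The difference in response between the times had 7 genes called with 25 µM AAF (1 to 119), 1072 with BaP (363 to 1937), 1037 with DAT (332 to 1946) and 3562 with MCA (1533 to 4740). MCA against BaP had 10 (2 to 89), and DMSO between the times had 7313 (5519 to 7769) in approach 1 and 5084 (4791 to 6587) in approach 2. With probe sets as features, 14769 and 9728 of 28499 probe sets were called there, and these counts stay out of the ranges of genes.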
